A study of Mus musculus with 8 samples.

Results

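The suppressive effector molecules of regulatory T cells are mostly secreted and surface products with which these cells restrain other immune cells or act on tissue. A list of 10 genes under this heading was taken by name: Il10, Ebi3, Il12a, Fgl2, Gzmb, Lgals1, Areg, Il1rl1, Klrg1 and Capg. The platform annotation gave 9 single-gene probe sets for 8 of them, out of 28898 single-gene probe sets for 17097 genes. Areg and Il1rl1 were not analysed here. Of the 8 genes, 7 passed the filter on dim values and were tested among 11413 genes, and Il10 lay under it on all 8 arrays.

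The 2 genotypes were compared on 8 single-channel arrays, 4 for each genotype. RaptorKO stands for the genotype CD4(cre)Raptor(fl/fl), in which Cre recombinase under control of Cd4 removes floxed Rptor, the gene of the scaffold protein Raptor that defines the kinase complex mTORC1. WT stands for wild-type mice, and both are labelled as C57Bl/6J. The labels do not say whether WT mice carry Cre or floxed alleles, and they give no age or sex. Cre driven by Cd4 is known to act in developing T cells of the CD4 and CD8 lineages, so the deletion is not limited to regulatory T cells. The cells came from spleen and peripheral lymph nodes and were sorted as CD4+CD25+, a gate that can also hold activated conventional T cells. They were untreated and used fresh. The comparison bears on the role of mTORC1 in regulatory T cell function named in the study's title.

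Regulatory T cells act through several kinds of molecule. IL-10 is a cytokine that damps antigen-presenting cells, and EBI3 with the p35 chain encoded by Il12a forms IL-35. FGL2 is a secreted fibrinogen-like protein that binds Fc gamma receptors, granzyme B is a protease delivered to target cells, and galectin-1 is a sugar-binding protein that can induce T cell death. KLRG1 is a cadherin-binding inhibitory receptor of highly differentiated T cells. The list also holds CAPG, a protein that caps actin filaments.

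The sorted cells carried the transcripts of their label. Foxp3, the transcription factor of the lineage, read 10.96 to 11.04 in RaptorKO and 10.79 to 10.96 in WT on the log2 intensity scale, and Il2ra, the CD25 chain, read 11.29 to 11.42 in RaptorKO and 11.14 to 11.47 in WT. All 8 measured regulatory T cell markers passed the filter, and 1 of them was called: Nrp1, the semaphorin receptor neuropilin 1, differed by -1.44 (limma adjusted p = 0.000736). Ctla4, an inhibitory receptor of these cells, differed by -0.32 (limma adjusted p = 0.169), and Ikzf2, another marker of the list, by 0.21 (adjusted p = 0.342). The genotypes did not overlap for Nrp1, Ctla4 and Ikzf2, as for 8.82% of the 11413 genes. These genes are named after their values were seen. Of the 8 markers, 4 had a positive difference and 4 a negative one. Rptor itself read 6.63, 6.47, 6.50 and 6.95 in RaptorKO, against 6.83, 6.85, 7.03 and 6.75 in WT (limma adjusted p = 0.491), and it is not known here whether its probes fall inside the floxed segment. Of all 11413 genes, 94 were higher in RaptorKO (0.824%) and 130 were lower (1.14%) at a Benjamini-Hochberg adjusted p under 0.05 in limma.

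Fgl2 was the member that passed the test. It read lower in RaptorKO, where all 4 readings lay under the filter level. The WT mean was 1.53-fold above that level, an estimate that takes no account of the spread between arrays. How far RaptorKO lies below that level is not known. The fitted difference between the readings was -1.34 on the log2 scale. The other 6 tested members did not pass the test: Lgals1 differed by 0.35, Capg by -0.19, Ebi3 by -0.23, Gzmb by -0.31, Klrg1 by -0.15 and Il12a by -0.01. A call of 1 of 7 tested members stands beside 1.96% of all tested genes, and with so few members no more is read from that share. Fgl2 passed the filter through its WT values alone, so the direction of its difference was set by the filter; without a filter its adjusted p was 0.0245 in limma over 17097 genes. Across the series, 5 genes were above the filter on all 4 WT arrays and on no RaptorKO array, and 4 of these were called, all lower.

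**Figure D1:**
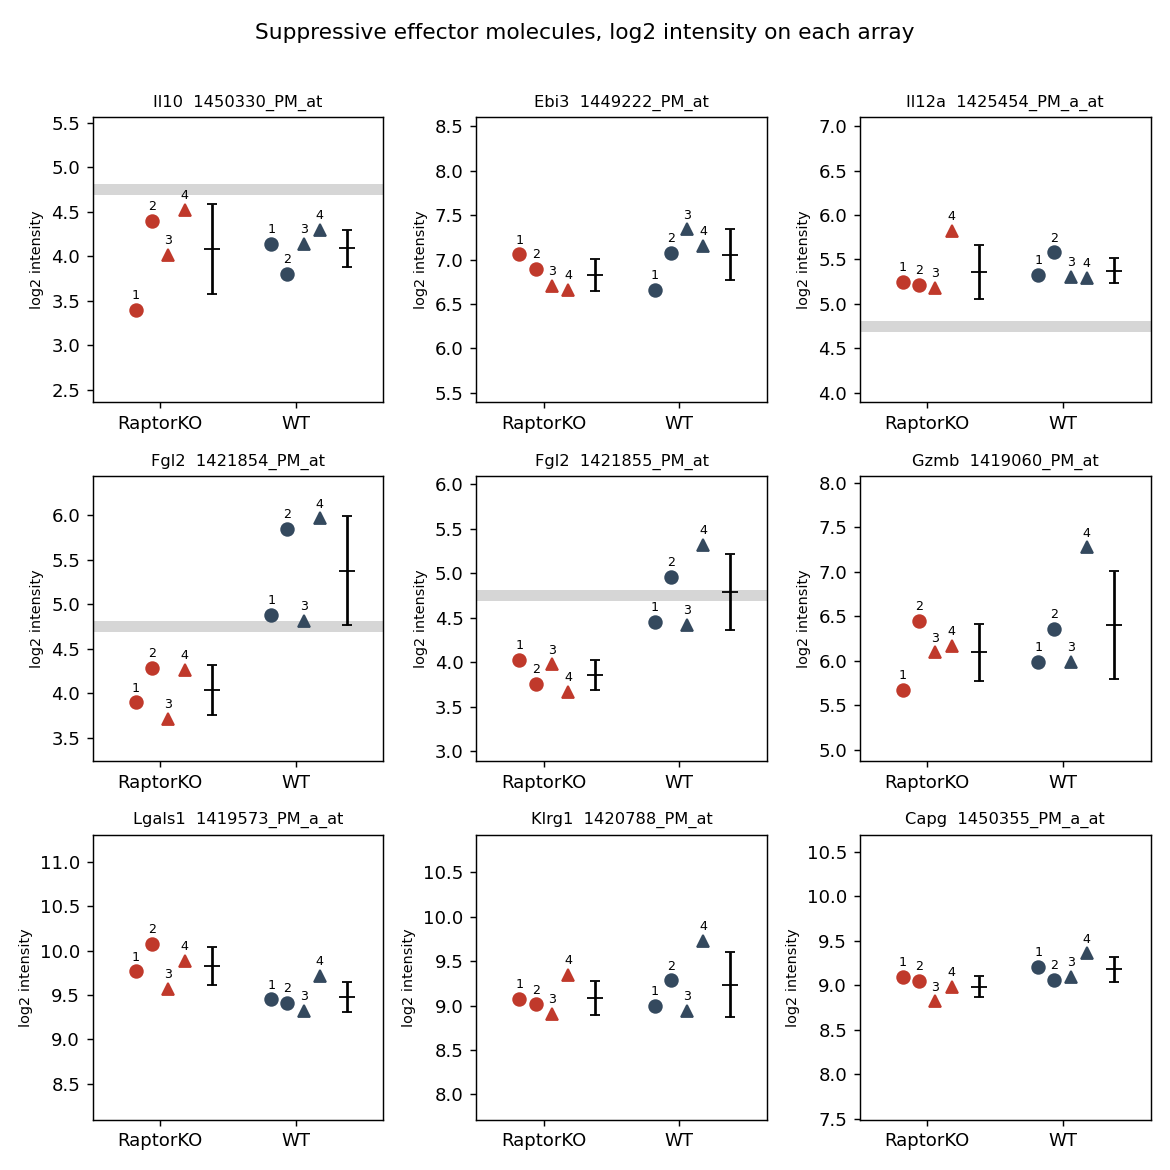
Log2 intensity of the 9 probe sets on each array, RaptorKO left and WT right, with the replicate number above each point. Circles are replicates 1 and 2, triangles replicates 3 and 4, and the bar beside each group is its mean with 1 SD (n = 4). The grey band is the range of the filter level, 4.69 to 4.81. Every axis spans the same range of log2 units. The genotypes stand clear of each other for both Fgl2 probe sets and overlap for the others.

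Fgl2 read 3.89, 4.29, 3.71 and 4.26 in RaptorKO replicates 1 to 4, against 4.88, 5.84, 4.81 and 5.96 in WT replicates 1 to 4. All 4 WT arrays were above all 4 RaptorKO arrays, and within WT replicates 2 and 4 stood about 1 log2 unit above replicates 1 and 3. The means were 4.04 ± 0.28 in RaptorKO and 5.37 ± 0.61 in WT (SD, n = 4 each), a change of -1.34 (SE 0.26, limma adjusted p = 0.0209). The filter level is the 40th percentile of all probe sets on an array and lay between 4.69 and 4.81. On this ranking Fgl2 stood between the 19.6th and 32.1th percentile of the RaptorKO arrays and between the 41.0th and 62.7th of the WT arrays. Fgl2 was therefore near background in RaptorKO, and in WT 1 and WT 3 it was only just above the filter level. With dim readings on every array raised to that level, the change was -0.61 and did not pass (limma adjusted p = 0.266).

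A second, dimmer Fgl2 probe set also read lower in RaptorKO, but its WT mean lay only 0.03 above the filter level on the log2 scale. It read 4.02, 3.75, 3.97 and 3.67 in RaptorKO, against 4.46, 4.96, 4.42 and 5.32 in WT. Again the genotypes did not overlap, as for 8.82% of the 11413 genes, and WT 2 and WT 4 were the highest. Within RaptorKO its order was the other way round, with replicates 1 and 3 above 2 and 4, all under the filter level. The change was -0.93 (SE 0.19), with an adjusted p = 0.0413 in limma over all 28898 single-gene probe sets without a filter. With each probe set that passed the filter tested on its own, which called 1.74% of 18583, the brighter Fgl2 probe set had adjusted p = 0.0257. Only 2 of the 4 WT readings exceeded the filter level, so this probe set was not tested in the filtered fit. Both probe sets report on the same RNA samples and are not independent replicates.

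The call for Fgl2 rested on several single arrays. It ended without RaptorKO 1 (-1.29, limma adjusted p = 0.0608), without RaptorKO 3 (-1.23, adjusted p = 0.0637), without WT 2 (-1.18, adjusted p = 0.0653) and without WT 4 (-1.14, adjusted p = 0.0666). Over all genes, the same runs called 136, 147, 152 and 101 in limma, in the order given, in place of 224.

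**Figure D2:**
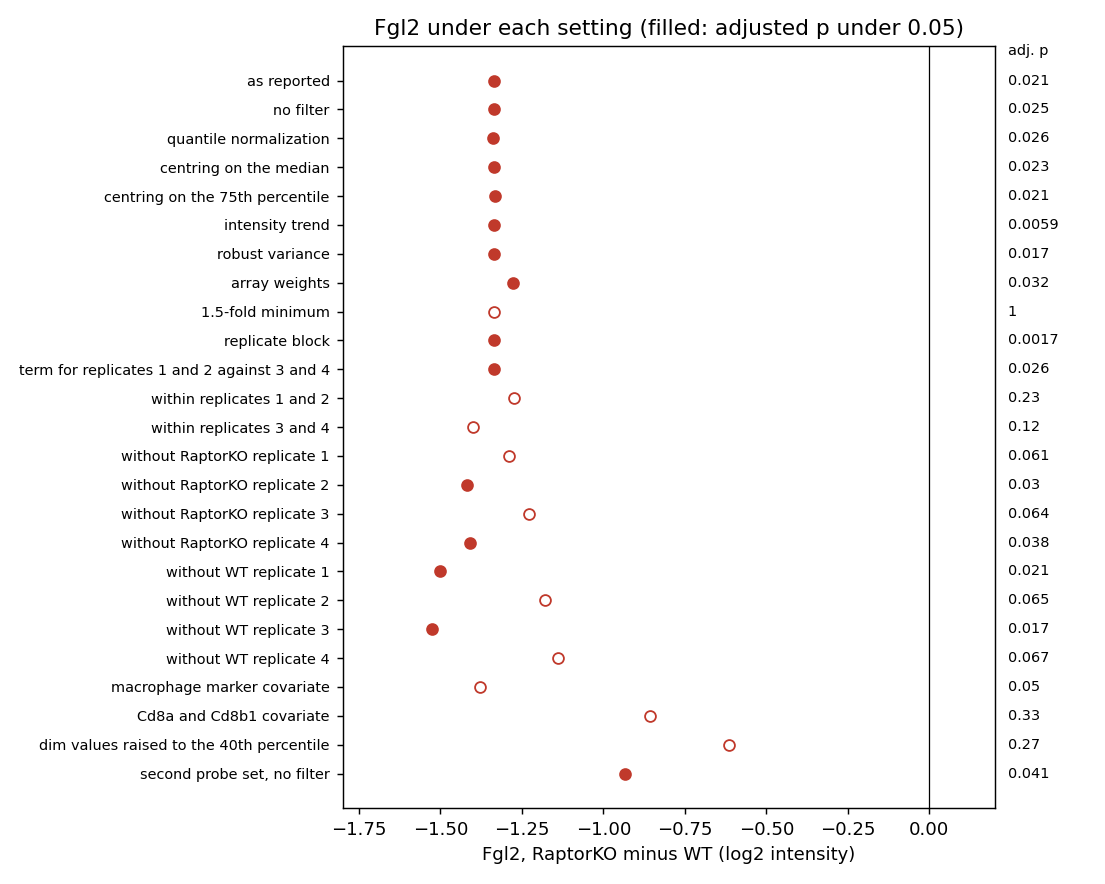
Change of Fgl2 (RaptorKO minus WT, log2 intensity, horizontal axis) under each setting (rows), with the limma adjusted p at the right. Filled points are past an adjusted p of 0.05 and open points are not. All points lie below 0, between -1.52 and -0.61, and the smallest change is the one with dim readings raised to the 40th percentile.

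The start of Fgl2 is shown because this is the called member, and that of Gzmb because it is the other member whose window held a searched pattern. Of the 8 measured members, 5 had windows in RefSeq's promoter table (GRCm38.p6), each from 250 bases before to 50 bases after the transcription start. Fgl2 lies at chr5:21372423-21372722 on the plus strand and Gzmb at chr14:56262285-56262584 on the minus strand, both written 5′ to 3′ in the gene's direction. Capitals mark matches to TGANTCA, the site of AP-1 and BATF dimers.
Fgl2: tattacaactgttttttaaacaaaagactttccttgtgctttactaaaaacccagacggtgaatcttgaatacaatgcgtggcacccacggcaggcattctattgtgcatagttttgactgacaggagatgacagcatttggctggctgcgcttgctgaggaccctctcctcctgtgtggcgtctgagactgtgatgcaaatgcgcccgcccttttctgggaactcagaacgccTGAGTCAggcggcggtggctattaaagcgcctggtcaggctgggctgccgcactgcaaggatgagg
Gzmb: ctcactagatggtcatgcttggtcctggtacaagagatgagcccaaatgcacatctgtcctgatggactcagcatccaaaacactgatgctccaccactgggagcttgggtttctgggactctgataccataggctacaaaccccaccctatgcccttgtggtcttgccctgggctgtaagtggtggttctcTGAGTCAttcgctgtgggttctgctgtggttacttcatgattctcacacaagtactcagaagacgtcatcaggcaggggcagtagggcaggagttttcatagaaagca
The match in Fgl2 begins at position -16 from the start and that in Gzmb at position -58, both reading TGAGTCA. The windows of Ebi3, Il12a (2 windows) and Capg held no TGANTCA, which 7.81% of all 32851 windows hold on either strand. The other patterns searched, on both strands, were CACGTG, the E-box that BHLHE40 binds, TTANNTAA for NFIL3 and GTAAACA for forkhead factors. None of these was found in the 6 windows of the members, while 7.15%, 6.00% and 3.65% of all windows held them. A match in letters is not evidence of a site in use, and no match says nothing about the factor.

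Among the cytokine genes, Il10 was not measurable above background. Its probe set read 3.40, 4.39, 4.02 and 4.52 in RaptorKO, against 4.14, 3.80, 4.13 and 4.29 in WT. All 8 readings lay under the filter level, between the 15.4th and 34.1th percentile of their arrays, and the genotypes overlapped. In a limma fit over all 17097 genes without a filter the difference was -0.01 (95% interval -0.47 to 0.45, adjusted p = 0.996). At such readings the intensity says little about the transcript.

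Ebi3, the beta chain that IL-35 shares with IL-27, was above the filter on every array. It read 7.06, 6.89, 6.70 and 6.66 in RaptorKO, against 6.66, 7.07, 7.34 and 7.15 in WT. WT 1 was as low as the lowest RaptorKO array, so the groups overlapped. The means were 6.83 ± 0.18 in RaptorKO and 7.05 ± 0.29 in WT, a difference of -0.23 (95% interval -0.55 to 0.10, limma adjusted p = 0.603). Replicates 1 and 2 alone gave 0.11 and replicates 3 and 4 alone gave -0.57; in these last, both RaptorKO arrays were below both WT arrays. The difference between these sets, -0.68, had an unadjusted p = 0.0153 and an adjusted p = 0.364 in the limma interaction.

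Il12a, the partner chain p35, was dim but above the filter on all arrays. It read 5.25, 5.21, 5.18 and 5.82 in RaptorKO, against 5.33, 5.58, 5.30 and 5.29 in WT. RaptorKO 4 and WT 2 each stood apart from the other arrays of their genotype. The means were 5.36 ± 0.30 and 5.38 ± 0.14, a difference of -0.01 (95% interval -0.33 to 0.31, limma adjusted p = 0.985). The interval for IL-35's chains therefore allows a change of up to 0.55 downward for Ebi3 and of about 0.3 either way for Il12a.

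Gzmb, the granzyme B gene, read 5.68, 6.44, 6.09 and 6.16 in RaptorKO, against 5.98, 6.35, 5.98 and 7.27 in WT. Only WT 4 was above all RaptorKO arrays. The means were 6.09 ± 0.32 in RaptorKO and 6.40 ± 0.61 in WT, a difference of -0.31 (95% interval -0.87 to 0.26, limma adjusted p = 0.716). Its interval was among the widest of the tested members, and without WT 4 the difference was -0.01.

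Lgals1, the galectin-1 gene, was the tested member with a positive difference. It read 9.77, 10.07, 9.57 and 9.88 in RaptorKO, against 9.45, 9.41, 9.32 and 9.72 in WT. RaptorKO 1, 2 and 4 were above all WT arrays, and RaptorKO 3 was below WT 4. The means were 9.82 ± 0.21 in RaptorKO and 9.48 ± 0.17 in WT, a difference of 0.35 (95% interval 0.06 to 0.63). The unadjusted p was 0.0207, as 13.0% of all tested genes had an unadjusted p under 0.05, and the limma adjusted p = 0.253 did not pass. The difference stayed positive in every alternative run, from 0.20 within replicates 3 and 4 to 0.49 within replicates 1 and 2.

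Klrg1, the inhibitory receptor, read 9.08, 9.01, 8.90 and 9.35 in RaptorKO, against 9.0, 9.28, 8.94 and 9.73 in WT. The groups overlapped, and the highest array of each genotype was replicate 4. The means were 9.09 ± 0.19 and 9.24 ± 0.36, a difference of -0.15 (95% interval -0.52 to 0.22, limma adjusted p = 0.805) that was 0.01 without WT 4.

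Capg, the actin-capping protein gene, read 9.09, 9.05, 8.82 and 8.98 in RaptorKO, against 9.21, 9.05, 9.09 and 9.36 in WT. RaptorKO 2, 3 and 4 were below all WT arrays, RaptorKO 2 by less than 0.01, and RaptorKO 1 overlapped with WT 2. The means were 8.98 ± 0.12 in RaptorKO and 9.18 ± 0.14 in WT, a difference of -0.19 (95% interval -0.43 to 0.04, limma adjusted p = 0.505). Lgals1, Klrg1 and Capg stood between the 95.1th and 98.1th percentile of every array, so dim signal did not limit them.

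**Figure D3:**
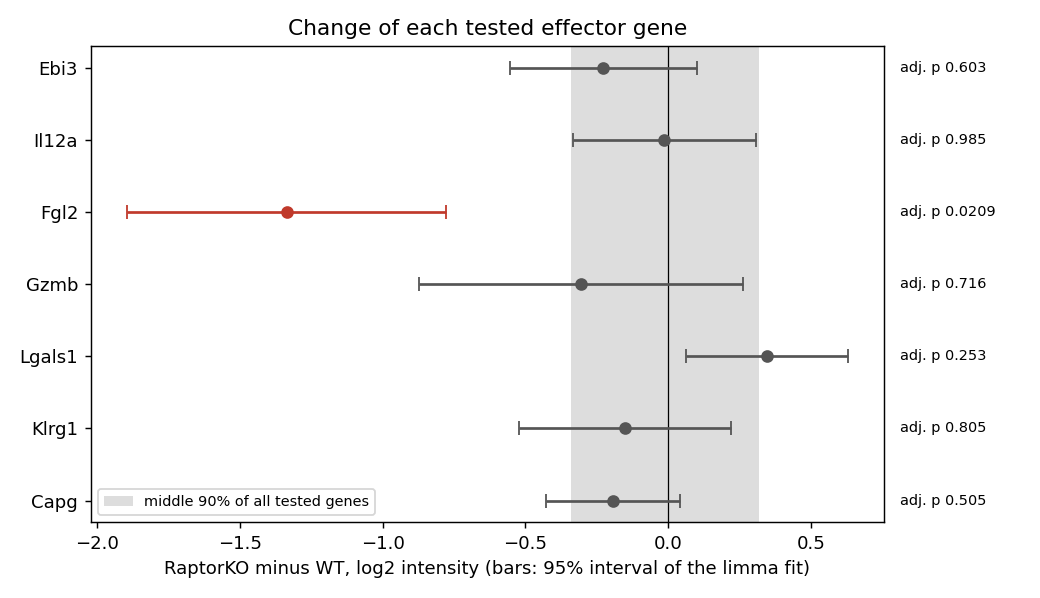
Change of the 7 tested members (RaptorKO minus WT, log2 intensity, horizontal axis) with the 95% interval of the limma fit and the adjusted p at the right. The grey area holds the middle 90% of the 11413 tested genes, from -0.34 to 0.32. The interval of Fgl2, from -1.90 to -0.78, lies outside it, and the intervals of the other members overlap it.

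Some members tended to be high on the same arrays within a genotype, though no pair passed a test after adjustment. After each gene's mean in its genotype was subtracted, Fgl2 and Klrg1 had Pearson r = 0.85 over the 8 arrays (two-sided exact permutation within genotypes, p = 0.0347) and Spearman rho = 0.88 (exact p = 0.0799). Over the 21 pairs of tested members the Benjamini-Hochberg adjusted values for this pair were 0.191 and 0.559. Fgl2 and Gzmb had r = 0.79 (exact p = 0.0295, adjusted p = 0.191) and rho = 0.69 (exact p = 0.0451, adjusted p = 0.559). Lgals1 and Capg had r = 0.79 (exact p = 0.0365, adjusted p = 0.191) and rho = 0.76 (exact p = 0.059, adjusted p = 0.559). Without the 2 arrays farthest from the median of the gene named first, which included WT 4 in each case, r was 0.71, 0.62 and 0.66 for these pairs in the order given. Fgl2 and Lgals1 had the smallest exact p, 0.0278 (r = 0.69, rho = 0.57, adjusted p = 0.191). In every pair with Fgl2, its 4 RaptorKO readings lay under the filter level. The dimmer Fgl2 probe set ordered the RaptorKO arrays the other way round. Gzmb and Klrg1 had r = 0.77 (exact p = 0.0694, adjusted p = 0.243), with no such likeness within RaptorKO, where r over the 4 arrays was -0.02, against 0.99 over the 4 WT arrays. WT 4 was the highest WT array for both Fgl2 probe sets, Gzmb, Lgals1, Klrg1 and Capg.

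**Figure D4:**
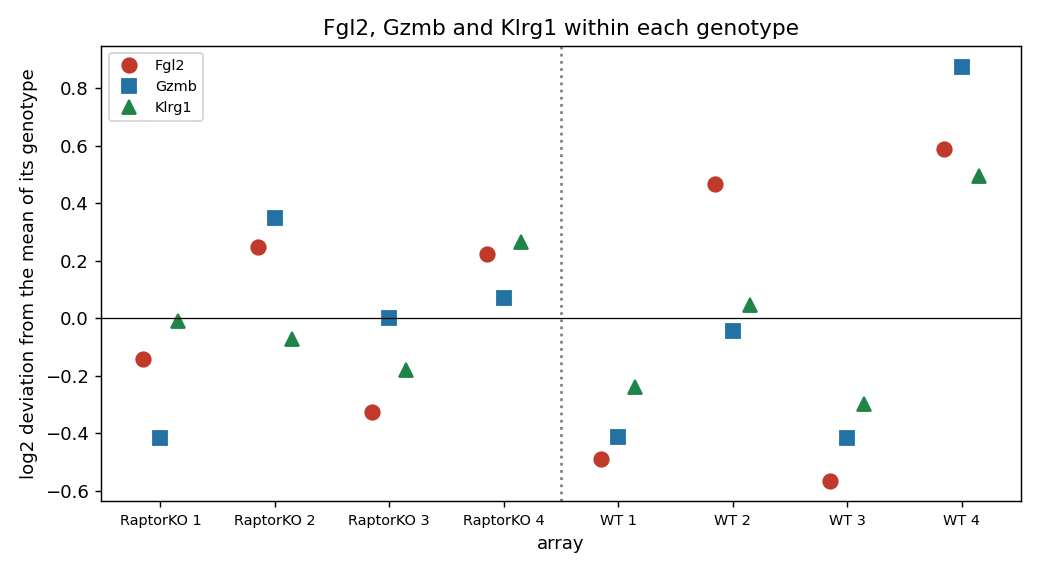
Deviation of Fgl2, Gzmb and Klrg1 from the mean of their genotype (log2 intensity, vertical axis) on each array, RaptorKO left and WT right of the dotted line. All 3 genes are above their mean in WT 4 and below it in WT 1 and WT 3, and Fgl2 is above its mean in replicates 2 and 4 of both genotypes. The Fgl2 points of RaptorKO come from readings under the filter level, and the dimmer Fgl2 probe set has the other order there.

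The genes most like the 3 members of smallest p were found by Pearson r over the 8 arrays, genotype included. For Fgl2 they were Icos, a costimulatory receptor (r = 0.97), Iigp1, an interferon-inducible GTPase (r = 0.96), and Car5b, a mitochondrial carbonic anhydrase (r = 0.95). Since genotype entered the choice, lower values in RaptorKO follow from it, and the differences are given as a description: -0.76 for Icos, -0.67 for Iigp1 and -0.91 for Car5b. Icos was highest in WT 2 and WT 4, as Fgl2 was, with 8.87, 9.05, 8.56 and 9.18 in RaptorKO and 9.39, 9.80, 9.53 and 9.98 in WT. Car5b read 3.98 to 4.44 in RaptorKO, under the filter level on all 4 arrays, and so passed the filter through WT alone, as Fgl2 did. For Lgals1 the most alike were Acsf3 (r = 0.96), Leng8 (r = 0.96) and Ccdc9 (r = 0.96), and for Capg they were Ints4 (r = 0.98), Midn (r = 0.96) and Pomp (r = 0.95). None of these 6 passed the limma test.

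Arrays differed in transcripts of other cell types. In bulk RNA, fewer cells of a type and less RNA per cell cannot be told apart. Cd8a, a marker of CD8 T cells that the CD4+ gate should leave out, read 6.59, 7.05, 5.93 and 5.77 in RaptorKO, against 5.95, 8.48, 7.33 and 7.72 in WT. WT 2, 3 and 4 were above every RaptorKO array, and WT 1 lay within the RaptorKO range. Cd8b1, the partner chain, differed by -0.77 (unadjusted p = 0.0035, limma adjusted p = 0.103). In the whole list of CD8 T cell and NK cell markers, 4 of 8 tested genes had a positive difference and 4 a negative one, and 1, higher in RaptorKO, was called (0.824% of all genes). It was Xcl1, at 1.23 (limma adjusted p = 0.00426). Nkg7 differed by 0.87 (adjusted p = 0.106), and both are named after their values were seen. An unadjusted p under 0.05 was found for 5 of the 8. Over all tested genes that share was 13.0%, for this list and the others below. Summed linear intensity over the 14 measured genes of the CD8 T cell and NK cell list ran from 1028 to 1312 in RaptorKO and from 661 to 1649 in WT. The NK cell genes Ncr1, Klrb1c, Klra1 and Klrc1 lay under the filter on all arrays. With the mean of Cd8a and Cd8b1 as a covariate, Fgl2 differed by -0.86 (limma adjusted p = 0.326), Gzmb by 0.03 and Ebi3 by 0.004. This mean differed in part with genotype, from 6.08 to 7.03 in RaptorKO and from 6.32 to 8.07 in WT. With it, 51 of all genes were called in limma in place of 224, so the loss of the call was not particular to Fgl2.

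Macrophages are known to express Fgl2, Capg and Lgals1 too. Of 12 tested macrophage and monocyte markers 11 had a positive difference and 0 were called (unadjusted p under 0.05 for 2 of them), with a summed intensity of 2232 to 3117 in RaptorKO and 2145 to 2734 in WT. The defining markers Adgre1 and Itgam lay under the filter on all arrays. With the mean of these 12 markers as a covariate, Fgl2 differed by -1.38 (limma adjusted p = 0.0503) and Lgals1 by 0.37 (adjusted p = 0.319). Dendritic cell markers were positive in 6 of 7 tested genes and B cell and plasma cell markers in 6 of 8, with 0 called in limma in either list and an unadjusted p under 0.05 for 0 and 1 of them. Markers of CD4 T cells had a negative difference in 6 of 6 tested genes (0 called in limma, 3 with an unadjusted p under 0.05). Their summed intensity ran from 8104 to 8889 in RaptorKO and from 9060 to 10261 in WT. Markers of conventional CD4 T cells had a negative difference in 8 of 9, and 1, higher in RaptorKO, was called (0.824% of all genes). Neutrophil markers were positive in 3 of 3 with 0 called. Mast cell, basophil and ILC2 markers were positive in 3 of 4 tested genes, and 1, higher in RaptorKO, was called (0.824% of all genes). It was Hpgds, named after its values were seen, at 2.18 (limma adjusted p = 2.77e-05). Rora of that list differed by 0.52 (unadjusted p = 0.00225, limma adjusted p = 0.0802). Kit was not tested, and read 4.58, 5.95, 5.01 and 5.52 in RaptorKO, against 3.98, 4.26, 3.89 and 4.36 in WT. Both are also named after their values were seen. Summed intensity over the 12 measured genes, Hpgds among them, ran from 589 to 721 in RaptorKO and from 398 to 468 in WT. Cpa3, Mcpt8, Fcer1a and Ms4a2 lay under the filter on all arrays. What part other cells have in the members' readings was not tested beyond these covariates, which cannot decide it since they differ in part with genotype.

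Replicates 1 and 2 of both genotypes stood apart from replicates 3 and 4 in Xist, the transcript of the inactive X chromosome. It read 11.18 and 11.15 in RaptorKO 1 and 2 and 10.90 and 10.88 in WT 1 and 2, while RaptorKO 3 and 4 read 5.28 and 5.62 and WT 3 and 4 read 5.58 and 5.04. Kdm5d, a gene of the Y chromosome, went the other way. It read 4.08 and 3.74 in RaptorKO 1 and 2 and 3.88 and 4.39 in WT 1 and 2. In RaptorKO 3 and 4 it read 8.33 and 8.22, and in WT 3 and 4 it read 8.51 and 8.40. This is the pattern of female cells in replicates 1 and 2 and male cells in replicates 3 and 4, alike in both genotypes. Fgl2 differed by -1.27 within replicates 1 and 2 (limma adjusted p = 0.232) and by -1.40 within replicates 3 and 4 (adjusted p = 0.122). The limma fits of 2 arrays against 2 called 0.0789% and 0.745% of all genes. The difference between the sets was -0.13 for Fgl2 (limma interaction, adjusted p = 0.937), and no member passed that test, for which the smallest adjusted p was the 0.364 of Ebi3, the 1 member with an unadjusted p under 0.05. With a term for the sets, Fgl2 had adjusted p = 0.0256.

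Other genes around these molecules were taken from lists chosen by name. Beside the counts of unadjusted p under 0.05 in these lists stands a share of 13.0% over all tested genes. Among transcription factors of effector regulatory T cells, 2 of 27 tested genes were higher (0.824% of all genes) and 1 was lower (1.14% of all genes), and 10 had an unadjusted p under 0.05. Bhlhe40, a transcriptional repressor of the clock and of cytokine genes, read 8.24, 8.16, 8.40 and 8.21 in RaptorKO, against 6.74, 6.49, 7.09 and 6.77 in WT, a rise of 1.48 (SE 0.13, limma adjusted p = 0.000199). Nfil3, a basic leucine zipper factor, fell by 1.19 (adjusted p = 0.00426), with 5.49, 4.68, 4.89 and 5.41 in RaptorKO and 6.30, 6.35, 6.13 and 6.46 in WT. Myb, a factor of effector regulatory T cell differentiation, rose by 0.95 (adjusted p = 0.00805). The genotypes did not overlap for any of these 3, as for 8.82% of all genes. Since they were chosen as called genes, this adds no support. Each call held without any single array. Nfil3 read above the filter level on 3 RaptorKO arrays, and RaptorKO 2 lay just under it. Bhlhe40, Nfil3 and Myb were the called genes of the list, whose median was 0.02 against -0.01 over all genes.

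Among cytotoxic granule genes, 1 of 16 tested was higher (0.824% of all genes) and 2 were lower (1.14% of all genes), and 8 had an unadjusted p under 0.05. Srgn, the proteoglycan core of granules, fell by 0.55 (limma adjusted p = 0.0163), with 9.99, 10.20, 10.07 and 9.94 in RaptorKO and 10.54, 10.52, 10.70 and 10.66 in WT. Serpinb6b, a serpin, fell by 0.75 (adjusted p = 0.0184), and Lamp1, a lysosomal membrane protein, rose by 0.46 (adjusted p = 0.041). Each of these calls ended without some single arrays, 3 for Srgn, 5 for Serpinb6b and 7 for Lamp1, with adjusted p = 0.0659, 0.0624 and 0.114 as the highest, all without WT 4. The list median was -0.06, and 6 granzyme genes, Gzmd, Gzme, Gzmf, Gzmg, Gzmk and Gzmn, lay under the filter on all arrays.

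Receptors and signalling partners of the secreted members had 0 called of 22 tested genes in limma, and 6 had an unadjusted p under 0.05. Their median was -0.11, with 15 negative. The gene of smallest p, Jak1, a kinase of the IL-10 and IL-35 receptors, differed by -0.41 (limma adjusted p = 0.0585), with 9.88, 9.87, 9.82 and 9.75 in RaptorKO and 10.25, 10.16, 10.39 and 10.15 in WT. With the mean of its 3 probe sets Jak1 differed by -0.38 and just passed (limma adjusted p = 0.0496). Relatives of the secreted members, among them other interleukins and ligands of the EGF family, were mostly dim: 13 of 21 lay under the filter on all arrays and 0 of 6 tested were called, none of them with an unadjusted p under 0.05. In that list Il24 had the smallest p (-0.11, adjusted p = 0.806). Relatives of galectin-1 and CAPG had 0 called of 13 and 2 with an unadjusted p under 0.05, with Capzb, a subunit of the actin-capping protein CapZ, at -0.35 (adjusted p = 0.114).

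Other suppressive and effector molecules changed in both directions, with 2 of 34 tested genes higher (0.824% of all genes) and 4 lower (1.14% of all genes), and 18 had an unadjusted p under 0.05. Penk, the enkephalin precursor, rose by 1.68 (limma adjusted p = 0.00243), with 8.67, 9.28, 8.69 and 8.79 in RaptorKO and 7.13, 6.51, 7.53 and 7.54 in WT. Nt5e, the ectonucleotidase CD73, fell by 0.76 (adjusted p = 0.00348), and Itgb1, the integrin beta 1 chain, fell by 0.70 (adjusted p = 0.00566). The remaining called genes were Icos (adjusted p = 0.0329, not called without any 1 of 5 single arrays, at most adjusted p = 0.108 when WT 4 was left out) and S100a6, lower in RaptorKO, and Ccr8, higher in RaptorKO, which are named after their values were seen. The list median was -0.07.

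**Figure D5:**
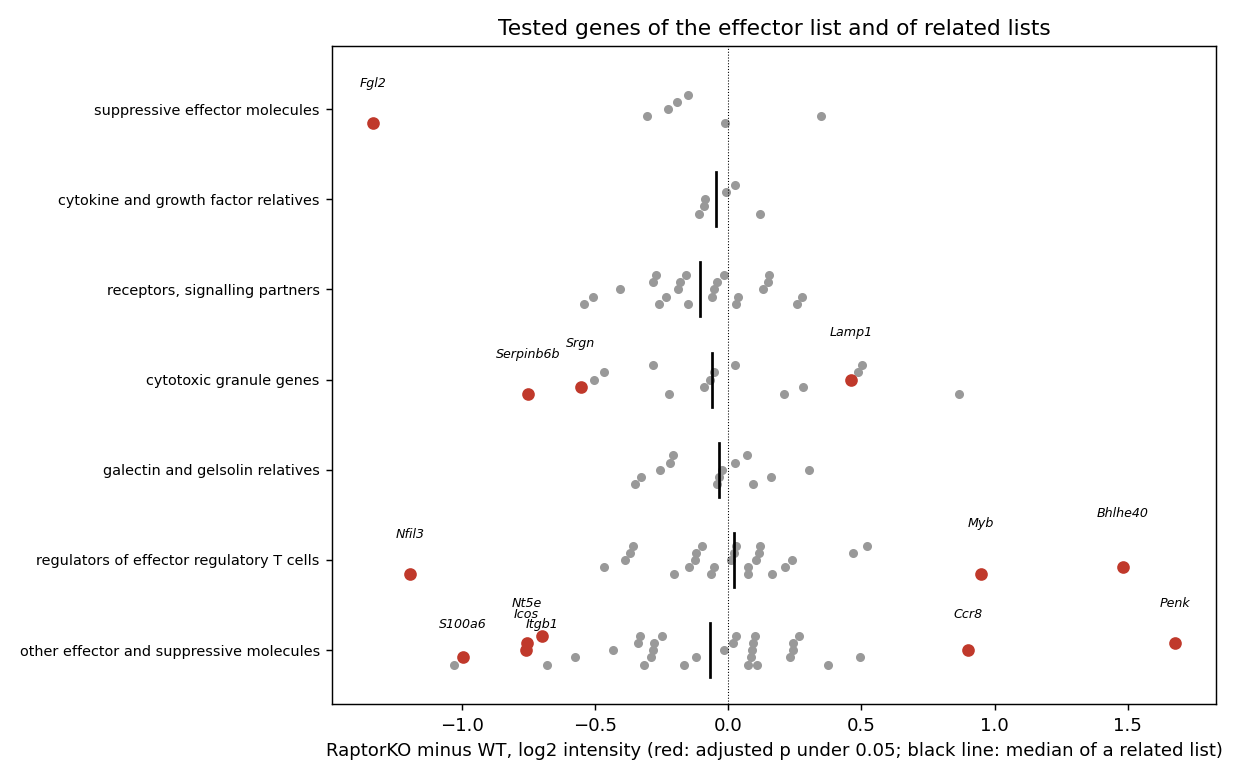
Change (RaptorKO minus WT, log2 intensity, horizontal axis) of the tested genes of the effector list and of 6 related lists. Red points are past an adjusted p of 0.05 in limma and are named, grey points are not, and a black line is the median of a related list. Fgl2 is the only named gene in the effector list, and Bhlhe40 and Penk are the largest rises shown.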

How the data were processed

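Total RNA of the 8 sorted samples was converted to biotinylated cDNA and hybridised to 1-channel arrays, following the protocols in the labels. Each deposited value is a log2 intensity of 1 probe set that the authors computed with RMA, per the submitters' processing notes, with the version not given in the sources used here. RMA evens out total signal between arrays, and array medians lay between 5.21 and 5.29. The number of arrays limits the precision. Groups and replicate numbers came from the titles, which do not say whether each sample is its own mouse; p-values therefore reflect only how these samples spread, which may be technical.

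Probe sets were named by the platform annotation, updated through Entrez identifiers (RefSeq, GRCm38.p6): 28689 of 28898 single-gene probe sets matched, 551 listed several genes and 15692 none. A gene stands by its probe set of highest mean, tested if 4 or more arrays read above their own 40th percentile. RaptorKO minus WT was fitted with limma 3.58.1 in R 4.3.3 over 11413 genes with Benjamini-Hochberg adjustment, and all adjusted p-values are from it unless stated. The code was tested on simulated data. Members, lists and tests were chosen with earlier results of these data known. Named genes were all members, Rptor, up to 3 called genes of each list by smallest p (or the 1 of smallest p), and the 3 genes most correlated with each of 3 members. Motifs, covariates and the raising of dim values were chosen after seeing the data. Genes tested were held fixed when arrays were left out.

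Plots used matplotlib 3.10.9 and Python 3.11.15.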

Additional observations from a re-analysis of the deposited data

Results flagged for a closer look

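Il12a had 1 array far from the others in each genotype. In RaptorKO the value of replicate 4, 5.82, was separated from the next by 0.89 of the group's whole range, and in WT the value of replicate 2, 5.58, was separated by 0.887 of the range; both ratios are past the 95% critical value for 4 samples. Chance marks about 1 in 20 groups in this way, and 18 groups (9 probe sets in 2 genotypes) were examined. Without RaptorKO 4 the Il12a difference was -0.16, and without WT 2 it was 0.06.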

How the results depend on the processing

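Fgl2 entered the filtered runs through its WT values alone, and its RaptorKO readings were near background in every run. The runs below are therefore no independent support for its call. The fall of Fgl2 kept its call without a filter, with quantile normalization, with centring on the median or 75th percentile, with an intensity trend, robust variance or array weights, and with a term for the replicate sets (adjusted p = 0.00593 to 0.0315). It was not called with a 1.5-fold minimum (-1.34, adjusted p = 1), within replicates 1 and 2 (-1.27) or 3 and 4 (-1.40), with the macrophage covariate (-1.38), with the Cd8a and Cd8b1 covariate (-0.86) or with dim values raised (-0.61), each leaving 0 called members. Without single arrays it ran from -1.52 to -1.14, called in 4 of the 8 runs (without RaptorKO 2, RaptorKO 4, WT 1 or WT 3). Fgl2 was not tested with the mean of its probe sets or with a 60th percentile filter, since it fell under those filters, and no member was called there (0). Members called numbered 0 to 1 over the arrays left out.

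The titles do not say whether replicate numbers pair the samples, and no pairing was evident. Deviations of same-numbered arrays correlated at 0.16, -0.15, 0.11 and 0.03, and 2 of 8 arrays correlated best with their own number. With a replicate block Fgl2 differed by -1.34 (adjusted p = 0.00169), and genes lower numbered 85 in place of 130.

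Of 224 called genes, 94 higher and 130 lower, counts were 370, 147 and 223 with an intensity trend, 7, 6 and 1 with a 1.5-fold minimum, 9, 7 and 2 within replicates 1 and 2, 85, 35 and 50 within replicates 3 and 4, and 51, 33 and 18 with the Cd8a and Cd8b1 covariate. Genes lower numbered 205 with array weights and 203 with every probe set on its own. Without single arrays the counts ran from 101 to 257, higher from 53 to 85 and lower from 48 to 176, each lowest without WT 4.

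Differences near 0 changed sign. Il10 was 0.058 within replicates 3 and 4 and ranged from -0.15 to 0.22 without single arrays. Ebi3 was 0.11 within replicates 1 and 2 and 0.0039 with the Cd8a and Cd8b1 covariate. Il12a was 0.03 with array weights, 0.20 within replicates 3 and 4 and -0.164 to 0.055 without single arrays. Gzmb was 0.030 with the Cd8a and Cd8b1 covariate, and Klrg1 ranged from -0.251 to 0.013 without single arrays. No member other than Fgl2 passed an adjusted p of 0.05 in any alternative run.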
